A study of Mus musculus with 4 samples.

Results

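Cycling thymic epithelial cells (TECs) with little Ccl21a were described in 4 single-cell RNA-seq libraries of sorted mouse thymic epithelium. The cells were chosen by measured values. A cell with at least 200 detected genes and at most 25% mitochondrial UMIs (unique molecular identifiers, each counting 1 captured transcript) was taken when at least 4 of the 6 cell-cycle genes Mki67, Top2a, Cdk1, Ube2c, Birc5 and Pclaf had a UMI. It also had to hold fewer than 20 Ccl21a UMIs per 10000, at most 2 UMIs over the 5 T cell genes Trbc2, Cd3d, Cd3e, Cd3g and Lck, and fewer than 20 Prss16 and Psmb11 UMIs per 10000, which left out cortical TECs. This rule selected 1141 of 28055 cells. They are called cycling Ccl21a-low TECs here, and the cycling TECs on the other side of the Ccl21a limit, 350 cells in all, are called cycling Ccl21a-high TECs.

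The libraries were made from mice of C57BL/6 background that were wild type (WT) or lacked Cd40, the receptor through which CD40 ligand of T cells signals. The wild-type mice were female, and the sex of the mice without Cd40 was not given. At 4 weeks of age all mice received a RANKL-neutralizing antibody (RANKL-Ab, clone OYC1, 5 mg/kg) or control IgG under the skin. The thymus was taken 2 weeks later, at 6 weeks. CD45- TER119- EpCAM+ cells were sorted, and each library pooled 3 mice, so each condition is 1 library. They are named WT-Control, Cd40-/- Control and, with the antibody, WT-RANKL-Ab and Cd40-/- RANKL-Ab, and where values are given in the order of conditions they run from WT-Control through WT-RANKL-Ab and then Cd40-/- Control to Cd40-/- RANKL-Ab. No test between conditions was therefore possible. Intervals are 95% intervals and cover counting error only, not the spread between mice, and fewer cells of a type in a library can reflect fewer cells in the thymus or fewer recovered by the sort. The knockout removes Cd40 from all cells of the mouse.

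Transit-amplifying cells are the dividing intermediates of a renewing tissue. In the thymic medulla, dividing cells that start to make Aire precede the postmitotic Aire-positive medullary TECs (mTECs), which display self-antigens of many organs to developing T cells. RANK (Tnfrsf11a), the receptor of RANKL, and CD40 both signal through NF-kB and are known to drive this maturation. Ccl21a, a chemokine that attracts CCR7-bearing thymocytes, marks another group of mTECs with high Krt5 and Krt14.

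The 4 libraries held 2082 to 10218 cells that passed, with 19153685 to 95277834 UMIs in all and a median of 6086 to 7622 UMIs per cell. The cycling Ccl21a-low TECs were deeper, with a median of 18294, 13330, 17108 and 14366 UMIs in the order of conditions. Cd40-/- Control and Cd40-/- RANKL-Ab shared 205 cell barcodes, 9.85% of the smaller library, against 0.817% to 1.42% for the other pairs. These barcodes had a median of 24073 UMIs in Cd40-/- RANKL-Ab and 723 in Cd40-/- Control, and 194 of 205 were deeper in the former. One of the 3 cycling Ccl21a-low TECs of Cd40-/- RANKL-Ab carried such a barcode. Because it held only 3 such cells, this library is described without comparisons of its genes. Cd40 itself, the check on the genotype, had 135 CPM (UMIs of the summed cells scaled to a total of 1000000) in the cycling Ccl21a-low TECs of WT-Control and 27.2 CPM in those of WT-RANKL-Ab. It had 4.54 CPM with Cd40 deleted and control IgG, and 0 UMIs with both, where the 3 cells allow up to 71.6 CPM.

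Of the 6 genes that chose the cells, 4 hold each of 2 short elements in the 130 bases before their start sites. The cell-cycle homology region, read here as TTTGAA or TTCAAA, and the CCAAT box, read as CCAAT or ATTGG, are elements known from promoters of genes expressed in late cell cycle. The 130 bases before the RefSeq start of each of the 6 genes are given 5′ to 3′ on the strand of the gene (build GRCm38.p6), with these letters in capitals, because the 6 genes define the cells.
Mki67, chr7:135716380-135716509, minus strand: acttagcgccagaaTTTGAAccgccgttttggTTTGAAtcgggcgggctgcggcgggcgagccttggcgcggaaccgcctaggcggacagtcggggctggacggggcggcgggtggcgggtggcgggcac
Top2a, chr11:99024190-99024319, minus strand: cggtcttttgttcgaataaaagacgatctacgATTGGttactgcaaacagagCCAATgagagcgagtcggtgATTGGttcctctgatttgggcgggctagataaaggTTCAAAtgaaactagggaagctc
Cdk1, chr10:69352913-69353042, minus strand: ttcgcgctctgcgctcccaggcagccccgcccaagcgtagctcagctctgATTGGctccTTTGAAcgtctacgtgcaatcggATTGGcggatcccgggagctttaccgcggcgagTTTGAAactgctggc
Ube2c, chr2:164769799-164769928, plus strand: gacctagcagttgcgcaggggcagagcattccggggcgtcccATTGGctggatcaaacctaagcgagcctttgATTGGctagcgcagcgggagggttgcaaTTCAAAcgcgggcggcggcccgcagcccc
Birc5, chr11:117849107-117849236, plus strand: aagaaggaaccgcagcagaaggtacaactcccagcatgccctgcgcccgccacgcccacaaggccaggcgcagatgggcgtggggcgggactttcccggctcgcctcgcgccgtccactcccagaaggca
Pclaf, chr9:65890193-65890322, plus strand: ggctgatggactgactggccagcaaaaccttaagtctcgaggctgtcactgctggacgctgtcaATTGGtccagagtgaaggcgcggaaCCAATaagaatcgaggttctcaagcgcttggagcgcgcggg

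TTTGAA or its reverse was found in 4 of the 6 windows and CCAAT or its reverse in 4 of the 6, on either strand and with no overlap between the matches. Over 32851 promoter windows of this length, 7.77% held the first and 22.4% the second. Top2a, which untangles DNA, Cdk1, the kinase of mitotic entry, and Ube2c, which loads ubiquitin onto mitotic proteins, held both, Mki67 the first only and Pclaf, a partner of PCNA, the second only. The Birc5 window held neither. Farther upstream than its window, Mki67 held 3 matches to the second. A match is a description of the letters and not a bound site.

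Cycling Ccl21a-low TECs made up 5.50% (5.07 to 5.96, Clopper-Pearson) of the cells in WT-Control, 562 of 10218. In Cd40-/- Control they were 6.45% (5.94 to 6.99), 554 of 8591. In WT-RANKL-Ab 22 of 7164 cells were found, 0.307% (0.193 to 0.465), and in Cd40-/- RANKL-Ab 3 of 2082, 0.144% (0.0297 to 0.421). The share in WT-RANKL-Ab was thus 17.9-fold lower than in WT-Control, a log2 ratio of -4.16 (-4.85 to -3.55), whereas Cd40-/- Control stood at 0.23 (0.06 to 0.40). Only 12 of the 22 cells of WT-RANKL-Ab held Aire or Fezf2 UMIs, as described below, so its share includes 10 cells without them. For Cd40-/- RANKL-Ab the log2 ratio was -5.25 (-7.54 to -3.70), and without the barcodes that occur in another library it was -5.68, from 2 cells. The share was lower in both antibody libraries than in both control libraries.

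The 2 kinds of dividing TECs did not differ alike between the libraries. Of all cycling TECs, 79.0% of 711 were Ccl21a-low in WT-Control and 82.6% of 671 in Cd40-/- Control, against 21.8% (14.2 to 31.1) of 101 in WT-RANKL-Ab and 37.5% (8.52 to 75.5) of 8 in Cd40-/- RANKL-Ab. Cycling Ccl21a-high TECs were 1.46%, 1.10%, 1.36% and 0.240% of cells in the order of conditions. A further 154 cells of WT-RANKL-Ab and 78 of Cd40-/- RANKL-Ab with at least 4 of the 6 cycle genes held more than 2 T cell gene UMIs and were left out by the rule, as were 50 in WT-Control and 284 in Cd40-/- Control.

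**Figure D1:**
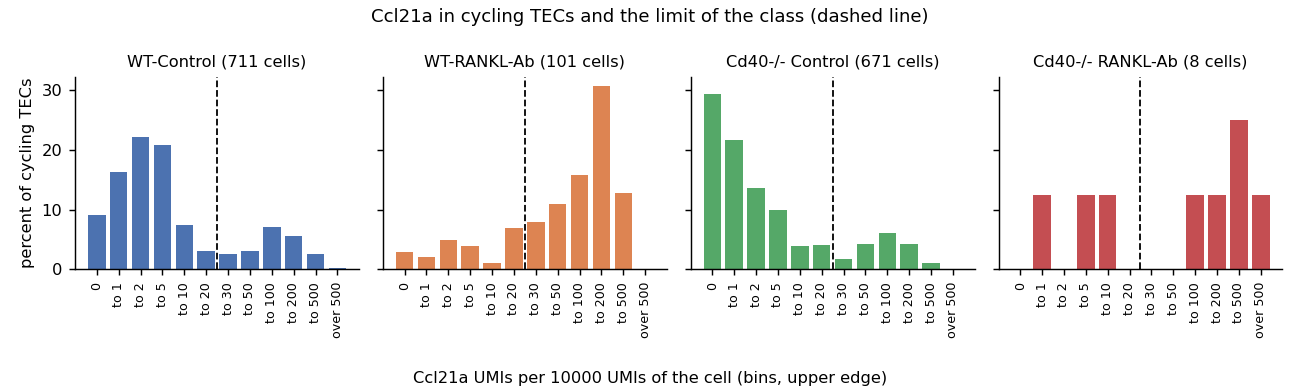
Share of the cycling TECs (percent, vertical axis) by Ccl21a UMIs per 10000 UMIs of the cell (horizontal axis, bins named by their upper edge) in each of the 4 libraries; the dashed line is the limit of 20. Most cycling TECs of WT-Control and Cd40-/- Control lie left of the line, and most of WT-RANKL-Ab and Cd40-/- RANKL-Ab lie right of it.

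Non-cycling Aire-positive mTECs, with none of the 6 cycle genes, at least 2 Aire UMIs and the same Ccl21a limit, were the cells these dividing cells are placed before. For every 100 of them there were 39.2 (35.5 to 43.3) cycling Ccl21a-low TECs in WT-Control, 20 (12.0 to 31.8) in WT-RANKL-Ab and 67.2 (60.3 to 75.0) in Cd40-/- Control. The counts of Aire-positive cells behind these ratios were 1432, 110 and 824. The ratio in WT-RANKL-Ab counts all 22 cycling cells, of which 12 held Aire or Fezf2 UMIs. In Cd40-/- RANKL-Ab 3 cycling cells stood beside 2 Aire-positive cells, which gives 150 per 100 with an interval of 17.2 to 1796. The ratio depends on the cycle-gene limit and on depth, with 24.4 to 48.6 in WT-Control and 40.4 to 78.5 in Cd40-/- Control over the alternatives, and in each of them Cd40-/- Control stood above WT-Control.

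**Figure D2:**
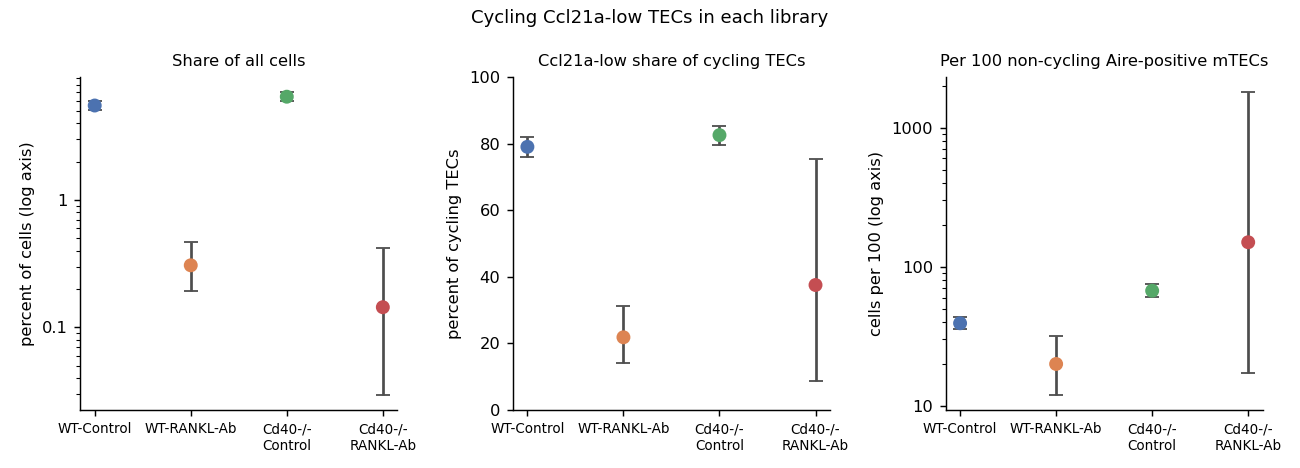
Cycling Ccl21a-low TECs in each library as percent of all cells (left, log axis), as percent of cycling TECs (middle) and per 100 non-cycling Aire-positive mTECs (right, log axis), with 95% intervals for counting error. The left panel shows 5.50% and 6.45% in the control libraries and 0.307% and 0.144% in the antibody libraries.

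The cells just inside and just outside the limits of the rule are given for description. In WT-Control, 134 Ccl21a-low cells with 3 cycle genes had 475 CPM of Aire and the 116 with 4 had 387 CPM. Between 10 and 20 Ccl21a UMIs per 10000, 22 cycling cells had 412 CPM of Aire and 548 CPM of Krt5, and just past the limit, between 20 and 30, 18 cells had 155 and 640 CPM. In Cd40-/- Control the 27 cells just inside had 194 CPM of Aire and 638 CPM of Krt5, and the 12 just outside 119 and 518 CPM. In WT-RANKL-Ab 7 of the 22 cells lay in the 10 to 20 range and 8 cells lay just outside. With a limit of 50 its log2 ratio to WT-Control was -3.36.

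The label was checked with Aire, the autoimmune regulator (ENSMUSG00000000731, chr10:78030022-78043610 in mm10), and with Fezf2 (ENSMUSG00000021743, chr14:12342094-12348189), a transcription factor of mTECs that also drives self-antigens. In WT-Control Aire ranged from 0 to 43.7 UMIs per 10000 over the cells with a median of 3.64, and 498 of 562 cells had a UMI. In Cd40-/- Control the range was 0 to 23.3 with a median of 3.75, and 506 of 554 cells had a UMI. With every cell thinned to 3000 UMIs, 62.3% (58.2 to 66.4) of 555 cells in WT-Control, 61.3% of 545 in Cd40-/- Control and 26.3% (9.15 to 51.2) of 19 in WT-RANKL-Ab had an Aire UMI, and 1 of 3 in Cd40-/- RANKL-Ab. Unthinned, these shares were 88.6%, 91.3%, 36.4% and 33.3%. Cortical TECs, which should lack Aire, gave 3.01% to 5% in these 3 libraries and 0.741% in Cd40-/- RANKL-Ab at 3000 UMIs, and cycling Ccl21a-high TECs gave 23.3%, 13.8% and 9.86% in WT-Control, Cd40-/- Control and WT-RANKL-Ab. Of the epithelial genes Epcam, Krt8 and Krt18, at least 1 was detected in all but 2 cells of WT-Control and 1 of Cd40-/- Control.

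The 22 cells of WT-RANKL-Ab did not all carry these lineage genes. Aire or Fezf2 UMIs were present in 12 of them, 54.5% (32.2 to 75.6), against 553 of 562 in WT-Control and 545 of 554 in Cd40-/- Control. The other 10 held all 79 UMIs of Igfbp7, an insulin-like growth factor binding protein, spread over 7 cells, and 140 of the 142 UMIs of 7 fibroblast genes (collagens, Pdgfra, Pdgfrb, Lum and Dcn), of which 83 lay in 1 cell. Depth did not separate the sets, with 2597 to 28153 UMIs per cell in the 12 and 1010 to 19364 in the 10. Epcam was detected in all 10 and in 10 of the 12. In the order of conditions, summed fibroblast genes were at 23.3, 552, 42.5 and 334 CPM over all cycling Ccl21a-low TECs, and the 10 cortical genes other than Prss16 and Psmb11 at 829, 2897, 638 and 3269 CPM. In WT-RANKL-Ab the cortical genes were at 2494 CPM in the 12 cells and 3395 CPM in the 10. Endothelial, erythroid and parathyroid genes were at most 27.6 CPM in every library, and 16 thymocyte genes summed to 284, 81.7, 186 and 0 CPM. The split by Aire and Fezf2 was made after the values were seen. Shares of cells in WT-RANKL-Ab count all 22 cells. Its gene levels are given with all 22 and, where they turn on it, with the 12.

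**Figure D3:**
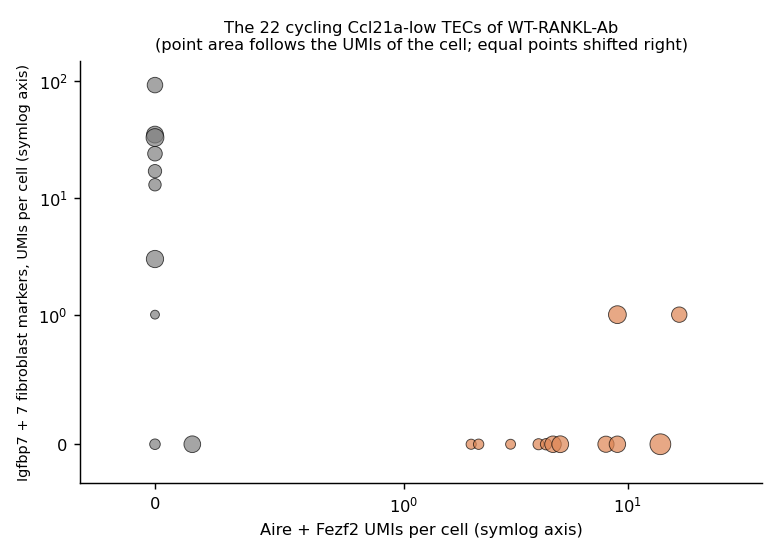
Each point is 1 of the 22 cycling Ccl21a-low TECs of WT-RANKL-Ab, by its Aire and Fezf2 UMIs (horizontal, symlog axis) and its Igfbp7 and fibroblast UMIs (vertical, symlog axis); point area follows the UMIs of the cell, and equal points are shifted right. The 12 cells with Aire or Fezf2 UMIs (orange) held at most 1 UMI of the other genes, and 7 of the 10 without (grey) held Igfbp7 UMIs.

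Compared with cycling Ccl21a-high TECs of the same libraries, cycling Ccl21a-low TECs carried more Aire, Cd80 and Csn2 and less Krt5, Krt14 and interferon-stimulated transcripts. The comparison asks what separates the 2 dividing populations, and it was fitted within libraries by edgeR's quasi-likelihood test with Benjamini-Hochberg adjustment over 10296 genes, on UMIs summed per class in the 3 libraries with at least 10 cells of each class, all but Cd40-/- RANKL-Ab. At adjusted p under 0.05, 574 genes (5.57%) were higher and 906 (8.80%) lower. Aire was at 455, 156 and 443 CPM in the Ccl21a-low cells, in the order of conditions, against 150, 42.1 and 95.8 CPM in the Ccl21a-high cells, a log2 fold change of 1.94 (SE 0.16, adjusted p = 0.0015, edgeR). Without WT-RANKL-Ab it was 1.92. The p-values rest on how far the difference between the classes varied among these 3 libraries, which differ in condition.

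Besides Aire, the largest rises were of Olfm4 (2.07), an intestinal stem cell glycoprotein, Igkc (1.94), Cdx1 (1.81), an intestinal homeobox factor, Lyz2 (1.78), a lysozyme, Hebp1 (1.62), Insm1 (1.62), a neuroendocrine transcription factor, and Hdc (1.59), the enzyme that makes histamine, all as log2 fold changes with adjusted p of 0.012 or less by edgeR. Cdx1 stood at 337, 66.1 and 220 CPM in the Ccl21a-low cells and at 113, 22.8 and 53.8 CPM in the Ccl21a-high cells. The levels in WT-RANKL-Ab were thus lower in both classes, while the direction held in all 3 libraries. Cd80, the costimulatory ligand of CD28, rose by 1.70 (SE 0.37, adjusted p = 0.027, edgeR), from 18.1, 0 and 6.43 CPM to 42.2, 27.2 and 25.4 CPM. Csn2, the milk protein beta-casein and an Aire-dependent self-antigen, rose by 1.27 (SE 0.16, adjusted p = 0.0039, edgeR). It was the 1 of 8 tested self-antigens that rose, while 1, Crp, the C-reactive protein, fell and 6 did not pass. Of 11 tested chemokines of mTECs 1 was higher and 1 lower. Utf1 rose by 1.25 and Tmem158 by 0.98, both of them genes used below to pick early Aire-lineage cells. Myc, the growth regulator, rose by 0.77 and Ccnd2, a G1 cyclin, by 0.54, whereas Ccnd1, another G1 cyclin, fell by 0.92.

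The largest falls were of Ccl11, the eotaxin chemokine (-5.97), Ifit3 (-4.53), an interferon-induced antiviral gene, Mgp (-3.83), Gpx3 (-3.64), Myl9 (-3.54), Gas1 (-3.49), Wfikkn2 (-3.47) and Tagln (-3.42), with adjusted p of 0.027 or less by edgeR. Myl9 and Tagln, genes of contractile cells, were at 2.70 and 13.3 CPM in the Ccl21a-low cells of WT-Control but at 124 and 288 CPM in those of WT-RANKL-Ab, near the 202 and 470 CPM of its Ccl21a-high cells. Krt5 (ENSMUSG00000061527, chr15:101707070-101712898), a keratin of basal and medullary epithelium, was at 164, 463 and 172 CPM against 827, 1511 and 815 CPM, a fall of -2.08 (SE 0.14, adjusted p = 0.00079, edgeR), and its partner Krt14 fell by 1.57. Krt5 is a gene of the cells that Ccl21a marks, so the limit on Ccl21a bears on it. Of 18 tested genes of Ccl21a-high mTECs 13 were lower and none higher (median -1.87, beside 0.01 over all genes), a list that the rule itself favours.

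Of 35 interferon-stimulated genes 32 were lower and none higher (median -1.87). Isg15, a ubiquitin-like modifier, was at 35.8, 214 and 21.7 CPM against 630, 395 and 337 CPM (-3.20, SE 0.58, adjusted p = 0.015, edgeR). The difference was narrower in WT-RANKL-Ab, where the 12 cells with Aire or Fezf2 UMIs had 56.4 CPM of Isg15 and the other 10 had 408 CPM. No difference passed the test for Hes6, a Hes-family transcription factor (-0.02), for Tnfrsf11a (-0.03) or for H2-Aa, an MHC class II chain (0.13, SE 0.11, adjusted p = 0.48, edgeR). Of 13 MHC class II genes 2 were higher, of 17 Aire and mTEC regulators 4 were higher and 2 lower, of 14 NF-kB subunits and targets 3 were higher (Relb 0.53 and Birc3 0.64 among them) and 3 lower, and of 49 G2/M genes 1 was higher and of 43 S genes 4 were lower. Fezf2 was at 532 and 444 CPM against 325 and 319 CPM in the control libraries but at 159 against 303 CPM in WT-RANKL-Ab (0.26, adjusted p = 0.61, edgeR), and without that library it rose by 0.67 (adjusted p = 0.00027, edgeR). Cd40 passed only without it, at 0.82 (adjusted p = 0.025, edgeR) in place of 0.62. Its CPM were 135 against 69.6 in WT-Control and 27.2 against 25.1 in WT-RANKL-Ab, but 4.54 against 8.18 in Cd40-/- Control, where the gene is deleted, so the direction differed between the libraries in both fits.

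These calls rest on few libraries. Without WT-RANKL-Ab, the library whose 22 cells were mixed, 1757 genes (13.7%) were higher and 1900 (14.8%) lower. Without WT-Control these counts were 19 (0.202%) and 67 (0.712%), and without Cd40-/- Control 7 (0.0704%) and 71 (0.714%). Of 35 interferon-stimulated genes 34 were lower without WT-RANKL-Ab, and of 34 tested 7 without WT-Control and 9 without Cd40-/- Control. Genes of Ccl21a-high mTECs were lower in 16 of 19 without WT-RANKL-Ab, and in 5 of 18 and 5 of 19 without the control libraries in turn. Of the NF-kB and MHC class II genes none passed without WT-Control or without Cd40-/- Control, and 8 of 14 and 5 of 13 were higher without WT-RANKL-Ab. AP-1 genes were lower in 1 of 15 with all 3 libraries and in 12 of 16 without WT-RANKL-Ab. All 29 named genes that passed kept their direction in each of these fits, and 10 to 29 of them passed again.

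Compared with non-cycling Aire-positive mTECs, cycling Ccl21a-low TECs had less of the self-antigens, chemokines, costimulatory ligands and MHC class II genes and more Krt5, Ccnd1 and Myc. This comparison sets the dividing cells beside the postmitotic ones. The classes were cut on cycle genes and on Aire, so the cell-division genes that lead it (Ccna2 by 8.36, Plk1 by 7.71 and Ccnb1 by 7.10 on the log2 scale) and Aire itself, at 455, 156 and 443 CPM against 715, 589 and 787 CPM, are a description only. The cut on cycle genes also bears on the G1 genes read below, Ccnd1, Myc and Cdkn1a among them. Over 14647 genes tested by edgeR in the same 3 libraries, 2783 (19.0%) were higher and 3494 (23.9%) lower at adjusted p under 0.05. Without WT-RANKL-Ab these counts were 4973 (29.8%) and 5581 (33.5%), without WT-Control 559 and 1311, and without Cd40-/- Control 569 and 1412.

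Self-antigens of single tissues were lower, 15 of 17 with a median log2 fold change of -3.39 against -0.04 over all genes. Csn2 was at 251, 7.78 and 279 CPM against 1764, 885 and 1891 CPM (-3.25, SE 0.58, adjusted p = 0.0051, edgeR), and Ins2, an insulin gene, fell by 3.68. The largest falls outside the lists were of Sprr2i (-5.61) and Psors1c2 (-4.75), genes of the outer skin, Dppa3 (-4.65), a germ cell gene, Lgals2 (-4.58), Prss29 (-4.57), Cck (-4.50), a gut hormone, Pla2g1b (-4.42), a pancreatic phospholipase, and Fcer1g (-4.41), each at 0 or 3.89 CPM in the cells of WT-RANKL-Ab and at most 30.1 CPM in those of the control libraries. Among mTEC chemokines 11 of 12 were lower, with Ccl22, a ligand of CCR4, at 4.67, 0 and 4.64 CPM against 88.0, 233 and 33.1 CPM. Genes of other mTEC subsets were lower as well, 9 of 11 of the keratinocyte and enterohepatic list and 6 of 9 of the tuft list. Without WT-Control or Cd40-/- Control, self-antigens were lower in 11 of 13 and 13 of 16 and chemokines in 9 of 12 each time, and the other 2 lists in 5 of 11 and 3 of 9. In these fits 9.91% and 10.0% of all genes were lower.

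For antigen presentation, 9 of 13 MHC class II genes were lower and 1 higher. H2-Aa stood at 5420, 5581 and 5044 CPM against 11448, 13553 and 10813 CPM (-1.12, SE 0.20, adjusted p = 0.0053, edgeR), the same direction in all 3 libraries. Of 11 costimulatory and checkpoint ligands 6 were lower, including Cd86 (-4.64), Cd80 (-1.12) and Cd274, the PD-L1 gene (-1.05). Of 12 RANK, CD40 and lymphotoxin receptor genes 5 were lower, and Tnfrsf11a (ENSMUSG00000026321, chr1:105780718-105847981) fell by 0.74 (SE 0.24, adjusted p = 0.045, edgeR), from 112, 129 and 133 CPM to 75.7, 42.8 and 78.7 CPM. Traf1, a signal adaptor of these receptors, was also among the 5 (-2.51). Of 14 NF-kB genes 3 were lower, near the 23.9% of all genes. Among the 3 was Nfkbia, the NF-kB inhibitor (-1.20, and -0.53 without WT-RANKL-Ab). In the other direction 12 of 20 G1 cyclin, CDK inhibitor and Myc genes were higher, with Ccnd1 at 76.3, 85.6 and 96.3 CPM against 33.7, 59.5 and 37.8 CPM (1.20), while Cdkn1a, the p21 inhibitor, was 1 of 2 lower (-1.20). Cells were chosen as cycling or not, so the cut itself bears on this list. Krt5 rose by 2.25 (SE 0.19, adjusted p = 0.00034, edgeR), from 47.1, 73.7 and 35.4 CPM. Genes of other cells were also lower, 8 of 12 thymocyte genes, 7 of 8 of other leukocytes and 5 of 5 of erythroid cells, and their part in the difference was not tested. Without WT-Control 9.91% of all genes were lower and 4.22% higher, and without Cd40-/- Control 10.0% and 4.05%. In these fits the MHC class II count was 3 of 13 each time and that of the higher G1 genes 4 and 5 of 20. The count of receptor genes was 3 and 1 of 12, and that of the NF-kB and thymocyte genes 1 and 2 each time.

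Early Aire-lineage mTECs, cells with at most 1 cycle gene and UMIs in at least 2 of Hes6, Utf1 and Tmem158, were the other non-cycling class. They numbered 1863, 344 and 1185 in the 3 libraries, and 834, 56 and 495 of them were also counted as Aire-positive above. Aire was at 602, 171 and 621 CPM in them, with no difference from the dividing cells that passed the test (-0.23, SE 0.19, adjusted p = 0.36, edgeR). Without WT-RANKL-Ab it was lower in the dividing cells, by a smaller step that passed (-0.17, adjusted p = 0.045, edgeR). Of 15039 genes tested, 2595 (17.3%) were higher in the dividing cells and 3461 (23.0%) lower, and without WT-RANKL-Ab 4895 (29.2%) and 5426 (32.4%), without WT-Control 608 and 1396, and without Cd40-/- Control 698 and 1612. Hes6, Utf1, Tmem158 and the cycle genes, which cut these classes, were not read.

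Self-antigens were lower in the dividing cells here too, 16 of 17 with a median of -2.79, and tuft genes in 9 of 10. The largest falls were of Fabp9 (-4.23), a testis gene, Spink1 (-4.22), a pancreatic inhibitor, Rgs13 (-4.20), Lypd8 (-3.97), Resp18 (-3.91), Saa1 (-3.78), an acute-phase protein, Psors1c2 (-3.77) and Lypd2 (-3.71). Rgs13, a gene of tuft cells, was at 5.48, 0 and 1.75 CPM in the dividing cells against 71.6, 725 and 34.3 CPM, so its level in the early class was highest in WT-RANKL-Ab. No tuft or self-antigen gene was used to leave cells out of the early class, so it can hold such cells. H2-Aa fell by 0.51 (SE 0.18, adjusted p = 0.049, edgeR) and 5 of 13 MHC class II genes were lower, while 9 of 12 chemokines and 7 of 11 costimulatory genes were. Krt5 rose by 1.26, Ccnd1 by 1.08, Ccnd2 by 0.87 and Myc by 0.64, and Cdkn1a fell by 1.29 (SE 0.22, adjusted p = 0.0022, edgeR). Without WT-Control or Cd40-/- Control the self-antigen counts were 13 of 14 and 15 of 16 and the tuft counts 10 of 10, whereas 1 of 13 MHC class II genes and 1 of 11 and 3 of 10 costimulatory genes were lower. In these fits 9.85% and 11.3% of all genes were lower.

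**Figure D4:**
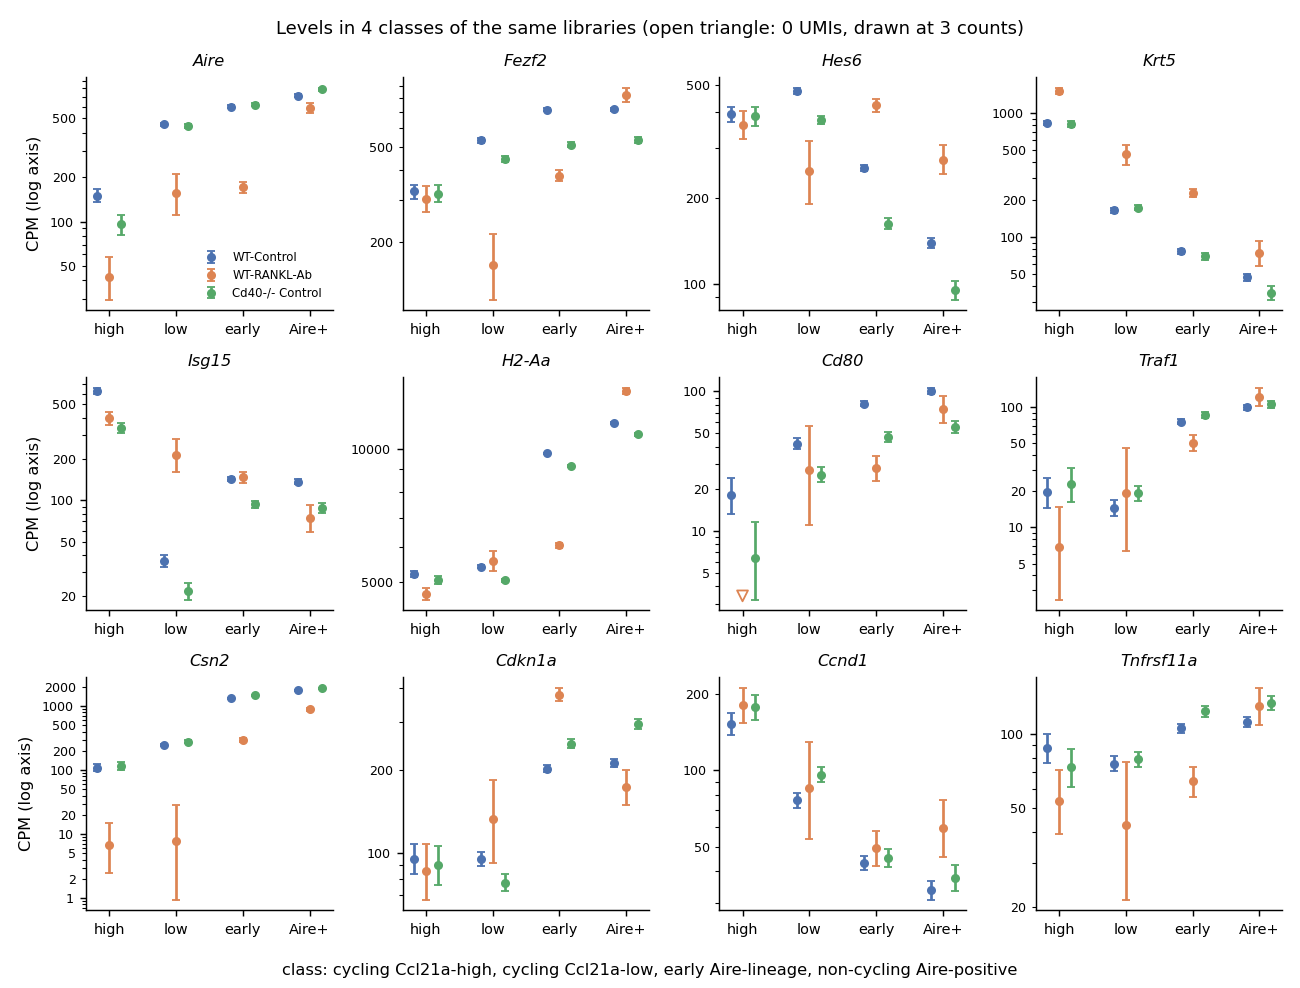
CPM (log axis) of 12 genes in cycling Ccl21a-high TECs (high), cycling Ccl21a-low TECs (low), early Aire-lineage mTECs (early) and non-cycling Aire-positive mTECs (Aire+) of 3 libraries, with 95% Poisson intervals; an open triangle marks 0 UMIs, drawn at 3 counts. In WT-Control, Krt5 goes from 827 to 164, 76.9 and 47.1 CPM and Csn2 from 109 to 251, 1317 and 1764 CPM from left to right.

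Within the cycling Ccl21a-low TECs, Krt5, Ccnd1 and Cdkn1a differed with Aire in both control libraries, while Krt14 and, in WT-Control, Csn2 hardly did. Each cell's UMIs were divided at random into 2 parts, cells were ranked on Aire in the first part and levels were read from the second, so that 1 sampling of Aire did not set both. From the lowest to the highest tercile in WT-Control, Aire was at 149, 409 and 736 CPM, Krt5 at 279, 174 and 58.4 CPM and Ccnd1 at 95.9, 70.1 and 58.4 CPM. In Cd40-/- Control, Krt5 was at 298, 149 and 88.1 CPM and Ccnd1 at 148, 89.8 and 52.4 CPM. Ccl21a, a gene of the rule, also fell, at 281, 269 and 204 CPM in WT-Control and 284, 110 and 79.8 CPM in Cd40-/- Control. The limit on Ccl21a bears on Krt5, and its part in this order was not tested. Cdkn1a was at 202, 59.0 and 39.4 CPM in WT-Control and at 157, 48.7 and 43.5 CPM in Cd40-/- Control, from UMIs in 30.6% and 25.8% of the cells. This order is opposite to that of the class comparison, where non-cycling Aire-positive mTECs had more Aire and more Cdkn1a. Csn2 was at 250, 243 and 266 CPM in WT-Control and at 186, 231 and 383 CPM in Cd40-/- Control, and Krt14 at 322, 328 and 318 CPM and at 322, 267 and 296 CPM. H2-Aa was at 4819, 5136 and 6153 CPM and Fezf2 at 430, 543 and 635 CPM in WT-Control. The terciles held 184 to 188 cells, and their median depth was 16713, 19525 and 19267 UMIs in WT-Control. Cells of 1 library are not replicates, and these values have no test.

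**Figure D5:**
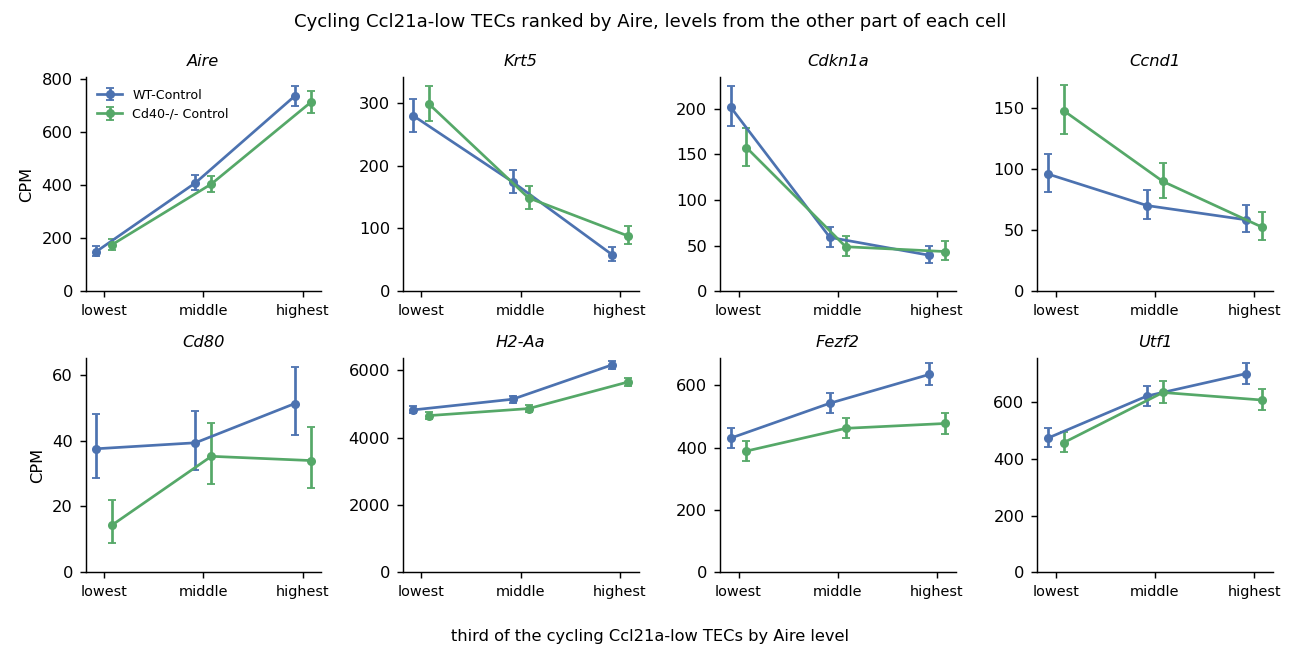
CPM of 8 genes in cycling Ccl21a-low TECs ranked by Aire (lowest, middle and highest tercile, horizontal axis) in WT-Control and Cd40-/- Control, with 95% Poisson intervals; ranking and levels come from separate parts of each cell's UMIs. Krt5 goes from 279 to 58.4 CPM and from 298 to 88.1 CPM.

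The genes whose level per cell was most like that of Aire over the 562 cells of WT-Control were Cyba, an NADPH oxidase subunit (Pearson r = 0.51 over cells, and 0.47 over the 554 cells of Cd40-/- Control), S100a14 (0.45 and 0.37), Hebp1 (0.43 and 0.43), Lad1, an anchoring filament protein (0.43 and 0.38), and Fabp5, a fatty acid binding protein (0.40 and 0.35). The points share a library and depth, and the values are a description.

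The position in the cell cycle was read from 43 S genes and 49 G2/M genes other than the 6 of the rule. In the order of conditions, S genes summed to 1895, 2524, 2237 and 3508 CPM and G2/M genes to 7636, 14930, 7669 and 13793 CPM. The rule chose cells on cycle genes and so bears on these levels. The ratio of S to G2/M UMIs was 0.25, 0.17, 0.29 and 0.25, and 0.31, 0.26, 0.37 and 0.22 in the cycling Ccl21a-high TECs. In WT-RANKL-Ab the 12 cells with Aire or Fezf2 UMIs had 9489 CPM of G2/M genes and the other 10 had 21636 CPM. Cells were then ranked by the S share of their cycle UMIs, which fixes the order of the cycle genes themselves, so these were not read. From the lowest to the highest tercile Aire was at 481, 458 and 424 CPM in WT-Control and at 542, 408 and 374 CPM in Cd40-/- Control, so it was highest in the cells with the lowest S share in both libraries. Csn2 was at 520, 202 and 105 CPM in Cd40-/- Control and at 267, 318 and 157 CPM in WT-Control.

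In cycling Ccl21a-low TECs without Cd40, Aire, Tnfrsf11a, Krt5 and Myc stood within counting error of their levels in WT-Control. Cd80 was lower and Cd274 higher, and NF-kB genes moved both ways. Of 13602 genes with enough UMIs, 620 (4.56%) were at least 2-fold higher in Cd40-/- Control than in WT-Control and 672 (4.94%) at least 2-fold lower, with a median log2 ratio of 0.08. Aire was at 443 against 455 CPM, a log2 ratio of -0.04 (-0.10 to 0.02), Tnfrsf11a at 0.06 (-0.09 to 0.20), Krt5 at 0.07 (-0.03 to 0.17) and Myc at 0.02 (-0.18 to 0.22). Fezf2 stood at -0.26 (-0.32 to -0.20), Hes6 at -0.33 and Krt8, a keratin of simple epithelium, at -0.41. Of NF-kB genes and targets, Nfkb2 was at -0.27 (-0.39 to -0.14) and Relb at 0.03 (-0.05 to 0.11). Nfkbia was at 0.28 (0.25 to 0.31), Birc3 at 0.34 (0.21 to 0.48) and Traf1 at 0.40 (0.09 to 0.71). Tmem158 was at 0.29, H2-Aa at -0.10, H2-Ab1 at -0.19 and Cd74 at -0.26. Cd40 UMIs were counted in 436 of 562 cells in WT-Control and 40 of 554 in Cd40-/- Control, 1504 against 44 UMIs, a log2 ratio of -4.90 (-5.36 to -4.46). Among the costimulatory genes Cd80 was lower, at 25.4 against 42.2 CPM (-0.74, -0.96 to -0.51), and Cd274 higher, at 27.3 against 13.8 CPM (0.98, 0.69 to 1.28). Cdkn1b, the p27 inhibitor, was at 0.65 and Fos, an immediate early gene, at 0.49. All 16 measured AP-1 and immediate early genes lay above 0 (median 0.59), 2 of them past 2-fold, although with TMM scaling 2 of the 16 and with 5 of 6 cycle genes 1 of the 16 lay below 0. Isg15 was lower at -0.73, although the interferon list had a median of 0.00.

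Several of the largest ratios came from few cells. Wap, the whey acidic protein, had 154 UMIs in WT-Control, all in 3 cells, and 1 UMI in Cd40-/- Control (-7.07, -12.4 to -4.57). Serpinb3a had 72 UMIs in 4 cells of Cd40-/- Control against 1 (6.37, 3.84 to 11.7), Crygs, a lens crystallin, 59 in 3 cells against 1 (6.08, 3.55 to 11.4), and Prss1, trypsinogen, 106 in 4 cells against 0, a log2 ratio of 5.34 with 0 taken as 3 UMIs and of at least 5.02 by the lower limit of its interval. Of the Crygs UMIs 57 lay in 1 cell, and without the 5% of cells with most UMIs the ratio turned to -0.32. Rln1 (3.75), Xcl1 (3.20), a chemokine for cross-presenting dendritic cells, Gatm (2.89) and Serpinb9b (2.54) followed, and below were Bpifb3 (-5.99), Spink12 (-5.01), Klk1b9 (-4.97), Cnn1 (-4.87) and Fam159a (-4.61). For Fam159a 54 of 56 UMIs lay in 1 cell of WT-Control, and with 5 of 6 cycle genes required the ratio turned to 0.17. Beside Cd40, UMIs spread over many cells were found for Wdfy1, with 151 UMIs in 116 cells against 24 in 21 (2.85, 2.22 to 3.54), and Gpr162, with 57 UMIs in 47 cells of WT-Control against 2 (-4.63, -7.71 to -2.71). Ins2 had 97 UMIs in 18 cells of WT-Control, 64 of them in 1 cell, against 9 UMIs.

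After RANKL neutralization the few cycling Ccl21a-low TECs had less Aire, Fezf2, Utf1 and Cd40 and more Krt5 and interferon-stimulated transcripts among their UMIs. These sums mix the 12 and the 10 cells described above. G2/M transcripts were also higher, but the rule chose cells on cycle genes and bears on them. Of 3472 genes with enough UMIs in the 22 cells, 477 (13.7%) were at least 2-fold higher than in WT-Control and 192 (5.53%) at least 2-fold lower. Scaling by TMM, which moved the median of all genes from 0.15 to -0.23, gave 252 and 436, so the balance of directions depends on the scaling. Aire was at 156 against 455 CPM (-1.55, -2.04 to -1.10), Fezf2 at 159 against 532 (-1.74), Utf1 at -1.80 and Cd40 at -2.31 (-3.63 to -1.26), while H2-Aa was at 0.04 (-0.03 to 0.12) and Tnfrsf11a at -0.82 (-1.83 to 0.02).

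The 12 cells with Aire or Fezf2 UMIs stood closer to WT-Control for several of these. They had 282 CPM of Aire (201 to 384) and 289 CPM of Fezf2, beside 460 and 538 CPM in the 553 such cells of WT-Control, values that the split itself raises. Tnfrsf11a was at 70.4 CPM in them and 76.4 in WT-Control, Nfkbia at 951 and 1390, Relb at 268 and 226 and Hes6 at 423 and 478 CPM. Isg15 was at 56.4 and 31.7 CPM, and Fos at 148 and 121 CPM. Krt5, Csn2 and Cd40 stayed apart in the sum over the 12 cells. Krt5 was at 704 CPM (573 to 857) against 164, Csn2 at 14.1 against 252 and Cd40 at 49.3 against 136 CPM. The Krt5 UMIs were uneven, with 19, 15, 25 and 32 in the cells of 15713, 15907, 16558 and 19274 UMIs. No other of the 12 held more than 4. Of these Krt5-rich cells, only that of 19274 UMIs had Aire UMIs, 2 of them. The interval covers counting error and not this spread between cells. Hdc (49.3 against 278 CPM), S100a8 (7.04 against 155 CPM), a neutrophil-type calcium-binding protein, and Cdx1 (113 against 340 CPM) were also lower in the 12 cells.

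The UMIs behind the largest ratios over the 22 cells lay mainly in the other 10. Bpifa1, a secreted airway protein, had 1278 UMIs, 1277 of them in 1 cell (8.42, 8.18 to 8.66), and 71.3% of the 994 UMIs of Wfdc2 (5.30), an airway secretory inhibitor, also came from 1 cell, as did all UMIs of Tff2 (5.11), a stomach trefoil peptide. Igfbp7 (6.65, 6.06 to 7.28), Spon2 (5.84), Prelp (5.81), Myl9 (5.53) and Ly6k (5.52) completed the 8 largest, and the 12 cells held no UMI of Igfbp7, Spon2 or Prelp and 7 of the 32 of Myl9. On the other side S100a8 had 1 UMI against 1715 (-5.31, -10.6 to -2.83), Csn2 2 against 2789 (-5.01, -8.06 to -3.16), Lyz1 1 against 1317 (-4.93), Ccl5 1 against 923 (-4.41) and Hdc 7 against 3109 (-3.36, -4.67 to -2.31), and S100g (-3.26), Mrps28 (-3.12) and Calca (-3.11) followed. These last 8 had 1 to 7 UMIs in the 22 cells.

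By list, 46 of 49 G2/M genes had enough UMIs, and 30 of the 46 were at least 2-fold higher, beside 13.7% of all genes. Their median was 1.12, and 0.75 with TMM, with Cenpf at 1.82 (1.60 to 2.03) and Ccnb2 at 1.59. The rule chose cells on cycle genes and so bears on this list. The 22 cells were also shallower, with a median of 13330 UMIs against 18294 in WT-Control. For the other lists, of which 11 to 15 genes had enough UMIs, a gene low in WT-Control could pass the minimum only by being high in the 22 cells, so sums over every listed gene are given. The 19 genes of Ccl21a-high mTECs summed to 14090 CPM against 5013 in WT-Control, the 35 interferon-stimulated genes to 6020 against 3264 CPM, the 17 AP-1 and immediate early genes to 4087 against 1909 CPM and the 18 Aire and mTEC regulators to 2057 against 3578 CPM. Split as above, genes of Ccl21a-high mTECs summed to 8798 CPM in the 12 cells and 20612 in the 10, against 4989 CPM in the 553 cells of WT-Control with these UMIs, and interferon-stimulated genes to 3691 and 8891 against 3224 CPM. G2/M genes were at 7549 CPM in the 553, below both sets.

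The 3 cells of Cd40-/- RANKL-Ab are given singly. The cell whose barcode also occurs in Cd40-/- Control had 23584 UMIs, with 9 of Aire, 19 of Fezf2, 18 of Krt5 and 15 of Ccl21a. The others had 3954 and 14366 UMIs, no Aire or Fezf2 UMI, and 1 and 5 of Krt5. None of the 3 had a Csn2 or Cd40 UMI.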

How the data were processed

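Gene-level UMI counts were taken as deposited, 1 matrix for each of 4 10x libraries. Per the file headers the authors made them with Cell Ranger 5.0.1 on mm10, whereas the submitters' processing notes name 5.1, and the paper's methods give read trimming before mapping and 3 pooled mice per library. The labels and the methods differ on the version of the 10x kit, and no doublet caller was run here. Cells were gated as described in the report, Ccl21a rows with the same symbol being summed. The rule, the gene lists and the comparisons were chosen with earlier results of these data known.

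UMIs were summed per class and library. Classes were compared with edgeR 4.0.16 (R 4.3.3), filterByExpr, TMM, the quasi-likelihood test with library as a block and Benjamini-Hochberg adjustment, with DESeq2 1.42.0 as an alternative. The same libraries hold both classes, and the block stands for that shared source. Conditions, with 1 library each, were compared by ratios of CPM with exact conditional intervals, for genes whose mean CPM gives at least 10 UMIs in the shallower sum. Python 3.11.15 with scipy 1.17.1 was used for Clopper-Pearson and Poisson intervals, which count UMIs or cells and cover counting error only. A value of 0 was given the upper limit of 3 counts. Named genes were a panel of 40, of which 1 is not reported here, and, per class comparison, the 8 largest rises and falls at adjusted p under 0.05 with a mean of at least 50 CPM, the same direction in every library and no use by the rule, or, per condition comparison, the 8 largest ratios each way with at least 50 UMIs whose interval leaves out equality. Genes in the 27 lists number 408. The scripts were tested on simulated data. Promoter sequences are those of RefSeq (GRCm38.p6), matched by symbol for 6 of 6 genes, and gene coordinates are from GENCODE (mm10). A symbol shared by rows was summed. Counts of near-identical family members such as Klk1b9 or the histone genes are uncertain.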

Additional observations from a re-analysis of the deposited data

How the results depend on the processing

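The share of cycling Ccl21a-low TECs ranged over the alternatives from 3.24% to 6.81% in WT-Control, 0.181% to 0.572% in WT-RANKL-Ab, 4.50% to 7.53% in Cd40-/- Control and 0.0961% to 0.152% in Cd40-/- RANKL-Ab, the ranges of the antibody libraries staying below those of the controls. With a Ccl21a limit of 50 the log2 ratio of WT-RANKL-Ab to WT-Control was -3.36, and the Ccl21a-low share of cycling TECs was 84.7%, 40.6% and 88.5% in WT-Control, WT-RANKL-Ab and Cd40-/- Control. With a limit of 10 it was 78.5% in Cd40-/- Control. With cells thinned to 3000 UMIs before the rule, the log2 ratio of Cd40-/- Control was 0.47, and with no T cell gene UMI allowed, chosen after seeing the data, it was 0.09. Per 100 Aire-positive mTECs, WT-Control gave 48.6 with 3 of 6 cycle genes, 31.1 with 5, 24.4 when thinned and 29.5 without the 5% of cells with most UMIs. Cd40-/- Control gave 78.5, 54.0, 40.4 and 46.1, and WT-RANKL-Ab 11.8 with 5 genes. Thinned, Cd40-/- RANKL-Ab held no Aire-positive cell and gave no ratio. The S to G2/M ratio was 0.257, 0.237 and 0.295 in WT-Control (3 genes, 5 genes, without the deepest 5%), 0.187 and 0.245 in WT-RANKL-Ab and 0.267 and 0.347 in Cd40-/- Control (the last 2 settings). The share with an Aire UMI was 30.8%, 36.9% and 0% in WT-Control, Cd40-/- Control and Cd40-/- RANKL-Ab at 1000 UMIs, and 77.2% and 79.5% in the control libraries at 6000. The share thus depends on depth.

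Against Ccl21a-high TECs, DESeq2's Wald test called 294 genes higher and 563 lower, and edgeR without a filter 1138 higher. Against Aire-positive and early cells DESeq2 called 1462 and 1664 higher. With DESeq2's size factors in edgeR 2036 were higher and 4054 lower than in Aire-positive cells, and 2369 and 4533 against early cells, so the balance of directions moved with the scaling. Leaving out 1 library gave 7 to 1757 higher and 67 to 1900 lower against Ccl21a-high TECs, 559 to 4973 and 1311 to 5581 against Aire-positive mTECs, and 608 to 4895 and 1396 to 5426 against early mTECs, the highest each time without WT-RANKL-Ab. With 10 CPM added, 16 and 55 genes were past 2-fold higher and lower without Cd40, and with at least 30 expected UMIs 303 and 313. For WT-RANKL-Ab, 30 expected UMIs gave 132 and 77, TMM 252 and 436, and leaving out the deepest 5% of cells 227 higher. Of named genes, Cenpf against Ccl21a-high TECs went to -0.55 and Crygs without Cd40 to -0.32 without the deepest 5%, Ciita against Aire-positive mTECs to 0.19 without WT-RANKL-Ab (-0.78 to 0.19 without each library in turn), and Fam159a to 0.17 with 5 of 6 cycle genes. The cause was not tested. Removing cells with a barcode in another library, chosen after seeing the data, moved none of the 21 shares, ratios and counts recomputed beyond 1.5 times or their spread.

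Without the library block that pairs the classes, 40 genes were higher and 297 lower than in Ccl21a-high TECs, 1612 higher than in Aire-positive mTECs, and 761 and 895 against early mTECs. The block holds the library, the shared source of both classes. No paired analysis between conditions was possible because each is 1 library.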

Other observations

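Heat shock genes, chaperones that help proteins fold, were a list not described above. Beside early Aire-lineage mTECs 5 of 10 were higher in cycling Ccl21a-low TECs and none lower (median log2 fold change 0.53, beside -0.05 over all genes), where 17.3% of all genes were higher. Without WT-RANKL-Ab 10 of 10 were higher, beside 29.2% of all genes. Without WT-Control 1 was higher, beside 4.29% of all genes, and without Cd40-/- Control 2, beside 4.89%. Beside non-cycling Aire-positive mTECs 3 of 10 were higher beside 19.0% of all genes, and 9 of 10 without WT-RANKL-Ab beside 29.8%, with none without WT-Control or without Cd40-/- Control. Beside cycling Ccl21a-high TECs 3 of 10 were higher beside 5.57% of all genes, 6 without WT-RANKL-Ab beside 13.7%, and none without WT-Control or without Cd40-/- Control. In the order of conditions the list summed to 12776, 10858, 13095 and 10262 CPM in the cycling Ccl21a-low TECs.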
